A study of Mus musculus with 4 samples.

Results

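The regions described here carried H3K27ac in the list labelled BN1 and in no peak of the list labelled control, and lay at the end of a protein-coding gene. Peaks of both lists on the placed chromosomes were merged wherever they touched, and a merged region was kept where all of its bases came from the list labelled BN1 and it came within 1000 bp of either end of a RefSeq gene. This left 1037 of 34906 merged regions, or 2.97% (95% exact binomial interval 2.80 to 3.15, which covers counting error only). The regions were chosen by the presence or absence of peaks in these same 2 lists, so every value below is a description and nothing was tested.

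H3K27ac was profiled by fanChIP, a chromatin immunoprecipitation from fractionated chromatin, in bone marrow cells of C57BL/6 mice. The BN1 library came from CD45.2+ marrow cells given as cKit(+) BRD9-NUTM1, and the control library from CD45.2+ marrow cells given as cKit(+) with no fusion named. BRD9-NUTM1, shortened to BN1, joins a bromodomain subunit of a BAF remodelling complex to NUTM1, a testis protein that recruits the acetyltransferase p300. The sources used here state neither how the fusion was introduced nor the age of the mice, nor whether animals were pooled. Each group had a single ChIP library, which leaves every difference without a replicate check, and the sequencing depth is unknown.

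The labels carry contradictions that bear on every direction below. The protocol text names BN1 cells for the control samples too. Peaks in the list labelled BN1 are named BM and those in the list labelled control are named BRNU, prefixes that the labels do not explain. They could be read as the 2 files having been exchanged, which the files do not settle, and in that case every BN1-only value below would be a control-only one. Groups follow the sample titles and are called by their labels. Kit, which encodes the receptor used for sorting, had 0 bp of peak within 10 kb in either list. Ptprc, the gene of CD45, had 2958 bp in the BN1-labelled list and 6634 bp in the control-labelled list, with a shared region at its end. The list labelled BN1 held 19148 peaks over 19.1 Mb and the list labelled control 28343 peaks over 31.0 Mb.

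H3K27ac is placed by p300 and CBP on nucleosomes beside active promoters and enhancers. Promoters used in most tissues are usually rich in CpG dinucleotides and acetylated in most cells, whereas promoters of granule proteins, globins or antigen receptor parts are often poor in CpG and acetylated only in their own lineage. In bulk chromatin, more cells of a type and more acetylation per cell cannot be told apart.

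Promoter sequences show the range of CpG content in the set. The following stretches hold the 250 bases before the annotated start of the gene with the longest 5′ region in each of 4 lineage lists (neutrophil, B lymphoid, erythroid, dendritic and MHC class II). They are RefSeq sequences of GRCm38.p6, written 5′ to 3′ on the gene's strand, with each CG in capitals.
Ngp (chr9:110419558-110419807, plus strand): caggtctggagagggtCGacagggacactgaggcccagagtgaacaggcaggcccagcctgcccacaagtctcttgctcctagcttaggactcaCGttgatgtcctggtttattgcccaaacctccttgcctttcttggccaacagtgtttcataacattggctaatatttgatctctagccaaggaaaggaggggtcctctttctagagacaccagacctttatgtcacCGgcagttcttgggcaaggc
Ebf1 (chr11:44617850-44618099, plus strand): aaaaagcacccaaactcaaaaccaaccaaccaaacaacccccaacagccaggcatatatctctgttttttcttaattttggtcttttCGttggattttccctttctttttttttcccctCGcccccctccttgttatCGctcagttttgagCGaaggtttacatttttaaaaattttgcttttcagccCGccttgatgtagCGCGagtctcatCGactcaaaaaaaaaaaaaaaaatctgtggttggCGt
Hba-a2 (chr11:32296242-32296491, plus strand): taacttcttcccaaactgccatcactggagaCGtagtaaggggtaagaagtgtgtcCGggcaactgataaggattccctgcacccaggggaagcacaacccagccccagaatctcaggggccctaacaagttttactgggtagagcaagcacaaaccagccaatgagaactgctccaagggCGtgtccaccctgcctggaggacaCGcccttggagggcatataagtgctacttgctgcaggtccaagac
H2-Eb1 (chr17:34305617-34305866, plus strand): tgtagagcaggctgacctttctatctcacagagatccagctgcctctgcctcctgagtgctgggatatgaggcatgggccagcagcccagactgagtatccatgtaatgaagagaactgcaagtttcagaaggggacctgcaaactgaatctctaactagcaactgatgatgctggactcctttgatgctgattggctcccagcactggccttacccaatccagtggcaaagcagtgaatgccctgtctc
Ebf1, a founding transcription factor of the B lineage, had 9 CG and a CpG ratio (observed over expected, over 300 bases) of 0.954. Hba-a2, an adult alpha globin gene, had 4 CG and Ngp, a neutrophil granule protein gene, had 3, with ratios of 0.188 and 0.156. H2-Eb1, a class II antigen-presenting chain, had 0.

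A second set shows the letters TTGCNNAA, the core that C/EBP factors bind, in promoters of neutrophil genes. C/EBP factors drive granulocyte genes in mice. The letters, searched on both strands of the 300 bases from 250 before to 50 after the start, were found in 7 of the 12 neutrophil list promoters with a BN1-only and no shared region at the 5′ end, against 10.1% of all 17492 promoters and 13.5% of the 9026 promoters with a CpG ratio below 0.6. The letters or their reverse complement are shown in capitals with up to 20 bases on each side.
Ngp (chr9:110419650-110419697, plus strand): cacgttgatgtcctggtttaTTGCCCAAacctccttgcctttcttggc
Ngp (chr9:110419777-110419807, plus strand): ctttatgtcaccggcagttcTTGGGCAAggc
S100a9 (chr3:90695930-90695971, minus strand): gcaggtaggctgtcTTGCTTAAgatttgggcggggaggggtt
Gfi1 (chr5:107725921-107725968, minus strand): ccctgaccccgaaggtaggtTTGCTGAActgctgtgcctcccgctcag
Retnlg (chr16:48872358-48872389, plus strand): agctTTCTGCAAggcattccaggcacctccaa
Lcn2 (chr2:32387928-32387975, minus strand): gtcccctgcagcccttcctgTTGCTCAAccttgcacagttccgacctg
Ltf (chr9:111019197-111019244, plus strand): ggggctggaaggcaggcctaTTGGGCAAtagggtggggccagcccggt
Mmp8 (chr9:7558390-7558428, plus strand): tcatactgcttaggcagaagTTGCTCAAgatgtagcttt
Ngp held 2 such stretches, at 138 and 11 bases before its start, Mmp8 had one at 19 bases and Ltf at 75 bases. The remaining 4 promoters had theirs between 143 and 246 bases before the start.

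Erythroid promoters were searched for AGATAA, one form of the letters that GATA factors bind and through which GATA1 activates red cell genes. Related forms, such as the TGATAA in the Hba-a2 stretch above, were not counted. AGATAA stood in 4 of the 11 erythroid list promoters with a BN1-only 5′ region (36.4%, 10.9 to 69.2). The share was 9.94% over all promoters and 15.1% over those with a CpG ratio below 0.6. The wide interval holds the second of these shares. The 3 genes that hold them before their start are shown with the letters, or their reverse complement, in capitals.
Trim10 (chr17:36869391-36869436, plus strand): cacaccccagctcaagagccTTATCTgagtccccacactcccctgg
Epb42 (chr2:121037078-121037123, minus strand): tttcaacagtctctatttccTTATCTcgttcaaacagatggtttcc
Hbb-bs (chr7:103828113-103828158, minus strand): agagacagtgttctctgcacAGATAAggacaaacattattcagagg
Over all 506 promoters whose 5′ end had a BN1-only and no shared region, the C/EBP letters stood in 11.3% and the GATA letters in 10.5%, both within 2 percentage points of the share over all promoters. A match describes letters and not a bound site. The letters need not lie inside a region either. For example, those shown for S100a9, Lcn2 and Trim10, and the whole Hba-a2 stretch, lie outside the BN1-only end regions of these genes.

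The regions were small and of moderate enrichment. Their median width was 523 bp (quartiles 311 and 1051, range 215 to 12983), and each was a single peak. The authors' fold enrichment at the summit had a median of 5.11 (quartiles 3.97 and 7.29, highest 41.8). Shared peaks at gene ends in the same list were wider and stronger, with a median width of 1101 bp and a median fold of 12. BN1-only peaks inside and between genes were close to the gene-end ones, at 441 and 449 bp and a fold of 4.73 and 4.99. Of the regions at gene ends, 82 were at least 2000 bp wide and 311 (30.0%) had a −log10 q under 5, near the lower limit of the list.

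**Figure D1:**
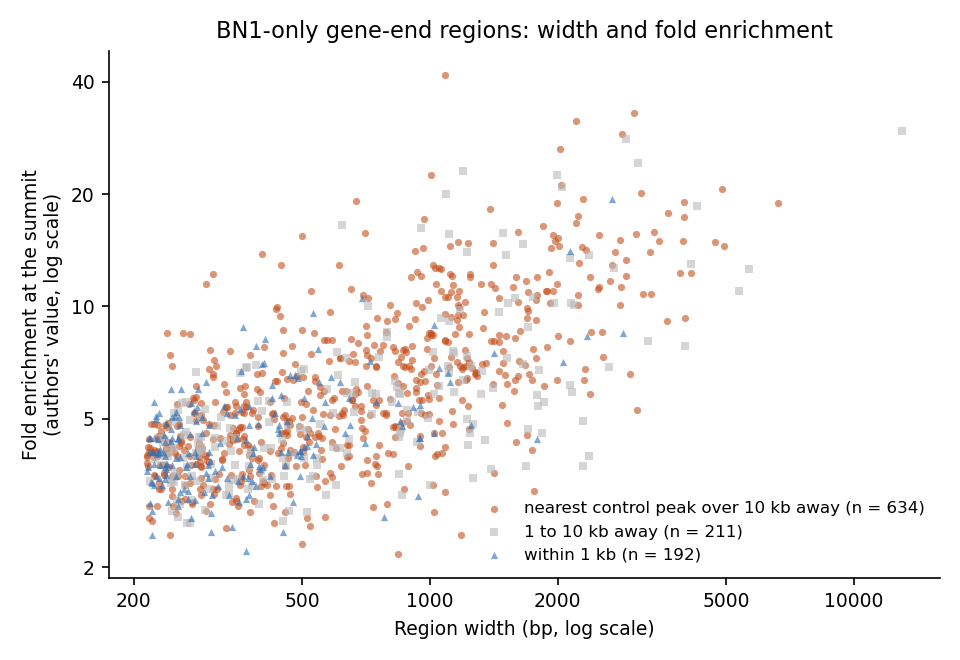
Width (x axis, bp, log scale) against the authors' fold enrichment at the summit (y axis, log scale) of the 1037 BN1-only gene-end regions, with 1 point per region and symbols by distance to the nearest control peak. Most points lie under 1000 bp and a fold of 10, and the 192 regions with a control peak within 1000 bp crowd at the narrow, weak end.

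Not all of the regions stood far from acetylation in the list labelled control. The nearest control peak lay a median of 18430 bp away (quartiles 2942 and 53850). It lay within 1000 bp for 192 regions (18.5%, 16.2 to 21.0) and over 10000 bp away for 634 (61.1%, 58.1 to 64.1). Regions beside a control peak had a median width of 332 bp and a median fold of 4.31, while those over 10000 bp from one had 653 bp and 5.62. The regions beside a control peak were therefore the narrower and weaker ones. The rule itself limits their width, because a region wide enough to touch the control peak was counted as shared.

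Most regions of known strand lay at the start of a gene. Strand was known for a gene end at 814 of the regions, and 635 of these (78.0%, 75 to 80.8) touched a 5′ end, against 96.7% of shared and 78.1% of control-only regions at gene ends. The remaining 179 lay at a 3′ end only. The gene end itself was covered by 34.2% of BN1-only, 83.6% of shared and 38.3% of control-only regions. Over 672 pairs of a region and a 5′ end, 64.0% (60.2 to 67.6) of summits fell within 500 bp of an annotated start, against 86.6% of 6907 shared pairs. Summits lay upstream of the start in 41.5% of BN1-only and 29.2% of shared pairs. The start in the promoter table is not always the outermost end of the gene: the summit was over 2000 bp from it in 58 BN1-only pairs (8.63%, 6.62 to 11) and 252 shared pairs (3.65%, 3.22 to 4.12), and at such genes the promoter sequence used here is not that of the region. At other genes too the promoter sequence can lie partly or wholly beside the region, since a region counts within 1000 bp of the gene end.

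**Figure D2:**
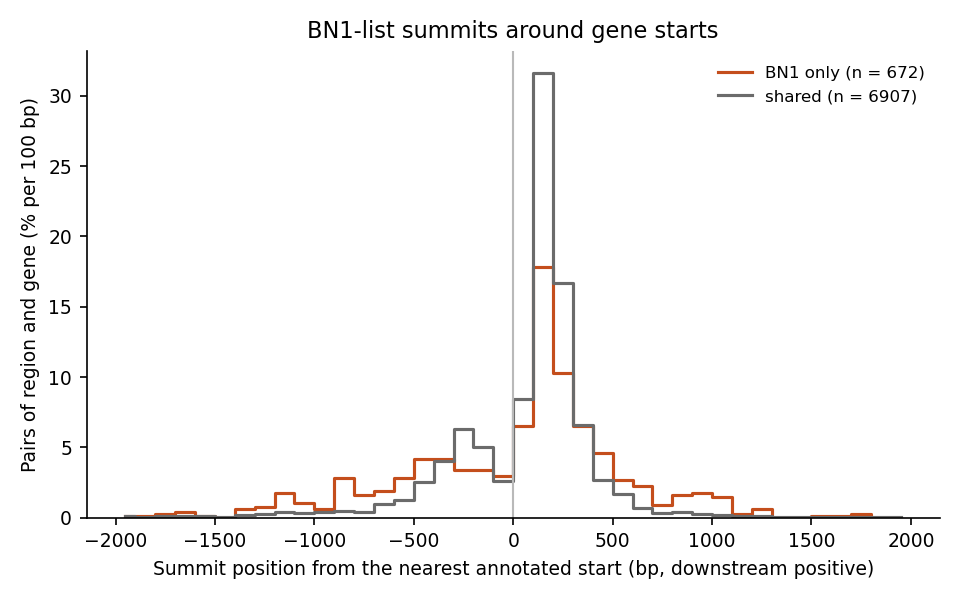
Position of the BN1-list summit from the nearest annotated start of the gene (x axis, bp, downstream positive) as the share of region and gene pairs per 100 bp (y axis), for 672 BN1-only and 6907 shared pairs, of which 58 and 252 lie beyond the 2000 bp drawn on each side. Both curves peak just downstream of the start, at a median of 108 bp for BN1-only and 144 bp for shared pairs, and the BN1-only curve is flatter with wider flanks.

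The regions touched 1022 of 21887 protein-coding genes, which is 4.67% of all genes. No control peak came within 1000 bp of either end for 671 of them (3.07% of all genes), and none came within 10 kb of the gene for 434. A shared region was also present at an end of 299. Control-only regions touched 2093 genes (9.56%) and shared regions 8496 (38.8%). Beside these shares, the genes of 13 lists of lineage, cell cycle and other genes were counted. The lineage lists mark cells that a marrow sample can hold, and what part such cells have in the differences was not tested.

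**Figure D3:**
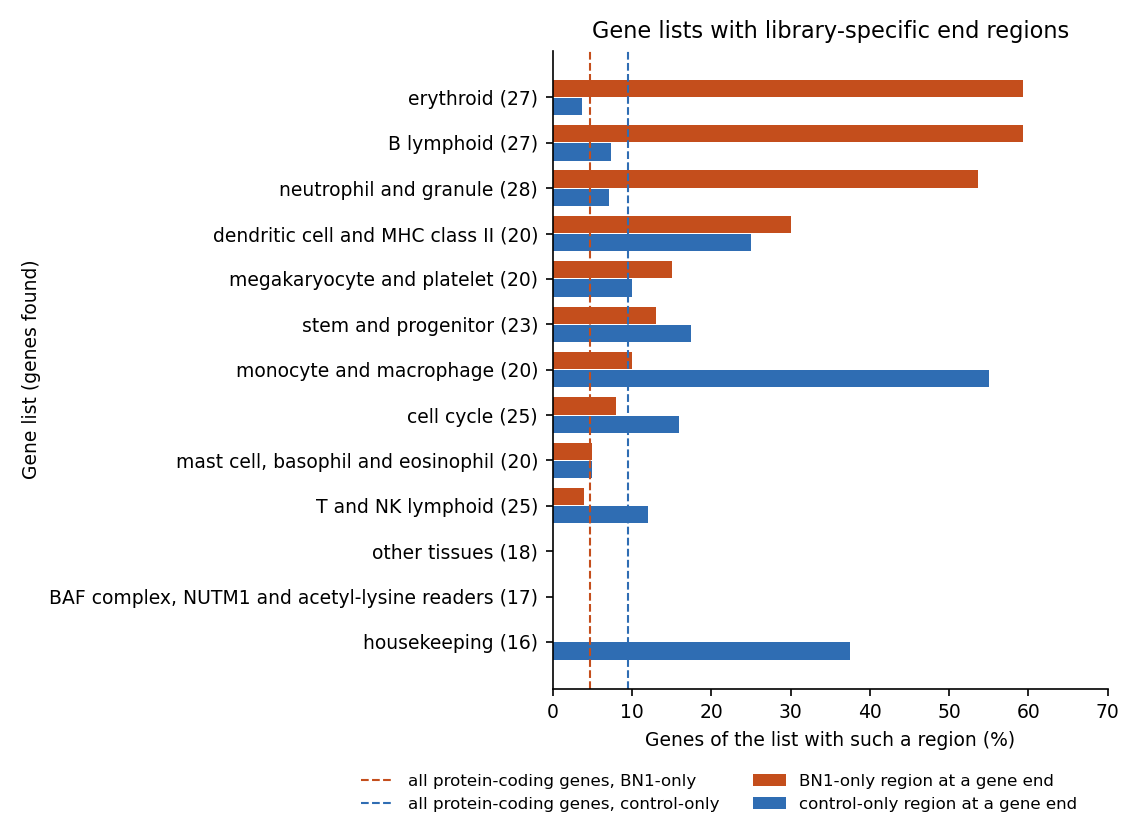
Share of the genes of each list (y axis, genes found in brackets) with a BN1-only (upper bar) or control-only (lower bar) region at an end (x axis, percent), with dashed lines at the shares over all 21887 genes, 4.67% and 9.56%. The erythroid, B lymphoid and neutrophil lists have the longest BN1-only bars, between 53.6% and 59.3%, and the monocyte and macrophage list has the longest control-only bar, 55.0%.

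Neutrophil and granule genes had a BN1-only region at 15 of 28 members (53.6%), against a control-only region at 2 (7.14%). Within 10 kb, their median acetylated length was 2138 bp in the BN1-labelled list and 0 bp in the control-labelled list. Summed over the list, it was 65908 bp in the BN1-labelled list and 25383 bp in the control-labelled list. Over all genes the medians were 429 and 809 bp. With a −log10 q of at least 10 asked of both lists, 9 members had a BN1-only region. Asked of the list labelled BN1 alone, it left 8.

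Among the granule proteins, Ngp had 8067 bp in the BN1-labelled list and 0 bp in the control-labelled list. A single region of 5349 bp (chr9:110417783-110423131, fold 11.0) ran over both of its ends. S100a9, a subunit of the calcium-binding antimicrobial calprotectin, had 6795 and 0 bp, with 2 end regions of 3883 and 894 bp. Camp, the cathelicidin precursor, had 4922 and 984 bp, and its BN1-only region of 2856 bp lay 227 bp from a control peak. Retnlg, a resistin-like secreted protein, had 3031 and 0 bp with a fold of up to 14.4. Lcn2, which binds bacterial siderophores, had 3531 and 2227 bp, so that its 2 BN1-only regions stood beside acetylation in both lists.

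Not all of the list followed. The acetylated length was greater in the BN1-labelled list for 16 of the 28 genes and in the control-labelled list for 4, and it was 0 bp in both for 8. Mpo, Elane and Prtn3, proteins of the promyelocyte's granules, had 0 bp within 10 kb in either list, as had Fpr2, Ly6g, Chil3, Ms4a3 and Olfm4. Ctsg, cathepsin G of the same granules, had 438 bp with a fold of 4.04 in the list labelled BN1 and 0 bp in the list labelled control. The gelatinase gene Mmp9 had 2406 bp in the BN1-labelled list and 7065 bp in the control-labelled list. The integrin gene Itgam had 1224 and 5695 bp, the formyl peptide receptor gene Fpr1 had 591 and 3134 bp, and Cebpa, the C/EBP factor of early myeloid cells, had 1331 and 1613 bp.

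Of the receptors and factors with BN1-only regions, Cxcr2, the chemokine receptor that draws neutrophils out of the marrow, had 4835 bp in the BN1-labelled list and 0 bp in the control-labelled list. Gfi1, a repressor needed for granulocytes, had 3480 and 0 bp, with a region of 2539 bp at its 5′ end and one of 435 bp near its 3′ end. Cebpe, the C/EBP factor of late granule genes, had 2934 and 0 bp, with a fold of no more than 5.11 in its end regions. Other members (S100a8, Csf3r, Cd177, Ltf, Padi4 and Mmp8) had BN1-only end regions of 272 to 946 bp in total.

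B lymphoid genes had a BN1-only region at 16 of 27 members (59.3%), against a control-only region at 2 (7.41%). Their median acetylated length within 10 kb was 3016 bp in the BN1-labelled list and 650 bp in the control-labelled list. The sums were 97547 and 31475 bp. A −log10 q of at least 10 in both lists gave 14 members with a BN1-only region, and in the list labelled BN1 alone 12. Windows of neighbouring genes overlap, so Vpreb1 and Igll1 have the same values (3016 and 984 bp). Rag1 and Rag2 likewise share their control peak (605 bp), and such peaks count for both genes. The length was greater in the BN1-labelled list for 20 of the 27 genes and in the control-labelled list for 6, and it was 0 bp in both for 1. Those 6 were Il7r, the interleukin 7 receptor gene (675 bp in the BN1-labelled list and 2703 bp in the control-labelled list), Fcer2a (804 and 1211 bp), Ms4a1 (0 and 650 bp), Bank1 (0 and 597 bp), and the recombinase genes Rag1 (0 and 605 bp) and Rag2 (462 and 605 bp). Rag2 had a BN1-only end region all the same.

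Of the receptor and its partners, Cd79b, a signalling chain of the B cell receptor, had 7975 bp in the BN1-labelled list and 0 bp in the control-labelled list, with regions of 3621 and 1148 bp at its 2 ends. Cd72, an inhibitory lectin of B cells, had 5363 and 3932 bp and also a shared region. Vpreb3, a chaperone of the early receptor, had 3115 and 0 bp, with 2 BN1-only regions near its 3′ end.

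Of the transcription factors, Ebf1 had 5757 bp in the BN1-labelled list and 0 bp in the control-labelled list, with a region of 3462 bp and a fold of 15.0 over its 5′ end. Pou2af1, the B cell partner of octamer-binding factors, had 2803 and 0 bp, all in 1 region with a fold of 15.1. Spib, an ETS factor, had 9064 and 695 bp with 3 BN1-only end regions. Bach2, a repressor that holds off plasma cell fate, had 10029 and 9332 bp. Its 5′ end region of 2894 bp was among the strongest of all, with a fold of 28.1, and lay 8293 bp from a control peak. The region covers the outermost annotated end of the gene, and the start in the promoter table lies far downstream of it.

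Erythroid genes had a BN1-only region at 16 of 27 members (59.3%), against a control-only region at 1 (3.70%). The sums of acetylated length were 40518 bp (BN1) and 21143 bp (control). These regions were smaller, and the median acetylated length within 10 kb was 1183 bp in the BN1-labelled list and 0 bp in the control-labelled list. With a −log10 q of at least 10 in the list labelled BN1 and the control list as deposited, 10 members had a BN1-only region. Asked of both lists, it left 11. Gata1, the master regulator, and Alas2, the first enzyme of haem synthesis in red cells, had 0 bp in either list.

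The globin genes were covered by short regions. Hba-a1 and Hba-a2 had 1129 and 1216 bp in the BN1-labelled list and 0 bp each in the control-labelled list. Hbb-bt and Hbb-bs, the adult beta globin genes, had 705 bp (fold 7.62) and 534 bp (fold 8.50), again against 0 bp each. Each pair holds near-identical copies, which makes the assignment of reads to one copy uncertain.

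Transport and enzyme genes of the red cell followed. Car2, a carbonic anhydrase, had 1642 bp in the BN1-labelled list and 0 bp in the control-labelled list. Aqp1, a water channel, had 2273 and 0 bp. Ermap, a blood group antigen gene, had 1982 and 480 bp, and Trim10, a RING protein needed for terminal erythroid differentiation, had 1037 and 0 bp. Of the 27 genes, 17 had the greater length in the BN1-labelled list and 5 in the control-labelled list, and 5 had 0 bp in both. Slc4a1, the band 3 anion exchanger, was one of those longer in the control-labelled list, with 1740 and 2716 bp, and had a BN1-only and a control-only region at its ends. The other 4 were Sptb (1800 and 3021 bp), which has a BN1-only end region, Ank1 (1591 and 3148 bp), Fech (583 and 1038 bp) and Epor (809 and 1212 bp). Nfe2, a factor of erythroid and platelet precursors, had 7832 and 2188 bp.

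**Figure D4:**
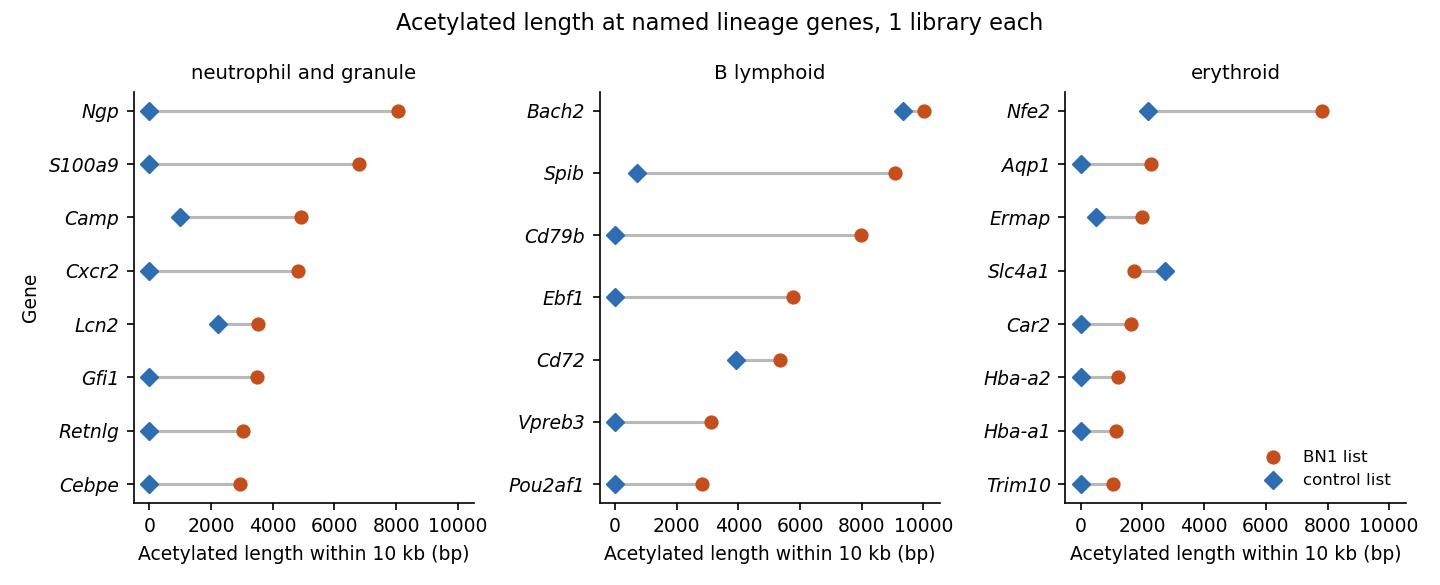
Acetylated length within 10 kb of the genes named from 3 lists (x axis, bp; y axis, gene) in the list labelled BN1 (circles) and the list labelled control (diamonds), 1 library each and no error bars. The control value is 0 bp for 6 of 8 neutrophil, 4 of 7 B lymphoid and 5 of 8 erythroid genes, and Slc4a1 is longer in the list labelled control.

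The other lists held fewer of these regions. The dendritic cell and MHC class II list had them at 6 of 20 genes (30.0%) and control-only regions at 5 (25%). H2-Eb1 had 5222 bp in the BN1-labelled list and 242 bp in the control-labelled list, H2-Aa had 3897 and 0 bp, and H2-Ab1 had 2893 and 0 bp. These class II chains are also made by B cells, as are Irf4 (2377 and 0 bp), a factor of activated B cells, and Bcl11a (5555 and 0 bp), a zinc finger factor of lymphoid precursors. Siglech, a marker of plasmacytoid dendritic cells, had 298 and 0 bp. Of the 20 genes, 15 had the greater length in the BN1-labelled list and 5 in the control-labelled list. Those 5 were Tcf4 (3359 and 11334 bp), Id2 (435 and 6531 bp), Xcr1 (2086 and 4658 bp), Clec9a (0 and 2677 bp) and H2-DMa (7068 and 7927 bp).

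Of 23 stem and progenitor genes, 3 had a BN1-only region (13.0%) and 4 a control-only region (17.4%). Myb, a factor that keeps progenitors dividing, had 3835 bp in the BN1-labelled list and 0 bp in the control-labelled list, with 3303 bp over its 5′ end. Sox4 had 4907 and 0 bp with a fold of 15.6, and both genes are also used by early B cells. Lmo2, a partner of TAL1, had 5242 and 2818 bp. Of the 23 genes, 6 had the greater length in the BN1-labelled list and 9 in the control-labelled list. The other 8 had 0 bp in both. The 9 included Ly6a (1948 and 6831 bp), Hoxa9 (300 and 4046 bp) and Meis1 (0 and 2737 bp).

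Monocyte and macrophage genes had a BN1-only region at 2 of 20 (10%) and a control-only region at 11 (55.0%). Both of the 2 regions, at Ly86 (549 bp) and Irf8 (375 bp), lay within 2000 bp of a control peak. Megakaryocyte and platelet genes had a BN1-only region at Thbs1, Gp9 and Selp, 3 of 20 (15.0%), and a control-only region at 2 (10%). Their acetylated length was greater in the BN1-labelled list for 4 genes and in the control-labelled list for 12. It was 0 bp in both for 4. BN1-only regions also lay at the cell cycle genes Ccnd3 and Cdk2, 2 of 25 (8%), and the T and NK gene Cd5, 1 of 25 (4%). Among mast cell, basophil and eosinophil genes, Il5ra had a BN1-only region, 1 of 20 (5%). No BN1-only region was found at 17 genes of the BAF complex, NUTM1 and acetyl-lysine readers, at 16 housekeeping genes or at 18 genes of other tissues. Of those 17 genes 14 had a shared region at an end, as did 15 of the 16 housekeeping genes.

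The longest regions were not all at lineage genes. The longest of all, 12983 bp with a fold of 29.6, lay near the end of a predicted gene. Among named genes the 10 longest ran from 4004 to 6615 bp, led by Smim5, which encodes a small membrane protein (chr11:115899281-115905895, fold 18.9). A region of 5642 bp covered the 3′ end of the calcium channel gene Cacnb1 and reached within 787 bp of Arl5c. Dusp2, a MAP kinase phosphatase of activated lymphocytes, lay inside a region of 4948 bp that also covered an end of Astl. Cd24a, a surface antigen of early B cells and neutrophils, had a region of 4711 bp and a fold of 14.9. Irgc1, Dus2, Parvb, Znhit1 and Cxxc5 made up the rest beside Ngp, with widths of 4004 to 4897 bp.

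Of the 10 regions with the highest fold among those not at predicted or clone-named genes, 5 touched a known 5′ end, 4 lay at genes of unknown strand and that of S100a7a lay at a 3′ end. Mnd1, a meiotic recombination factor, led with a fold of 41.8 in a region of 1083 bp, at percentile 96.8 of all peaks of the list labelled BN1. Cecr2, a bromodomain protein, had 33.1, Zeb1, a zinc finger repressor, had 31.5, and Traf3ip3, an adaptor of lymphocytes, had 29.0. The nearest control peak lay 63936 bp from the region of Mnd1, 32342 bp from that of Cecr2, 176430 bp from that of Zeb1 and 25526 bp from that of Traf3ip3. Zbtb10 (26.5), S100a7a (22.5), Zfp422 (22.5) and Acss1 (21.2) were also among them, as was Bach2.

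Some genes held several of these regions. Of the 1022 genes, 106 had 2 or more and 34 had one at each end. Rhoh, a GTPase of blood cells, had the most such length among these, with 4916 bp in 2 regions at its 5′ end and 0 bp in the list labelled control within 10 kb. S100a9, Cd79b and Spib followed with 4777, 4769 and 4327 bp.

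Some regions lay near each other. Of the 1037 regions, 337 (32.5%, 29.7 to 35.4) lay within 50 kb of another, in 151 groups, of which 23 held at least 3 regions. In 84 of the groups all regions touched 1 common gene, and the other 67 groups, with 166 regions, spread over several genes. The loci named next were chosen after their values were seen. At the S100a7a, S100a8 and S100a9 locus (chr3:90658682-90696911), 4 regions covered 7717 bp with 1 control peak in the span. The class II locus of H2-Ab1, H2-Aa, H2-Eb1 and H2-Eb2 (chr17:34263242-34326378) had 4 regions over 5059 bp, also with 1 control peak. Igll1 and Vpreb1, which encode the surrogate light chain of the early B cell receptor, had 3 regions over 2069 bp and no control peak between them. Cmpk2, Rsad2 and Rnf144a, the first 2 of them interferon-stimulated genes, had 3 regions over 2701 bp and no control peak.

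Promoters of the member genes were less CpG-rich than those with shared regions. A CpG ratio of at least 0.6 was found in 55.3% (51.3 to 59.2) of 628 promoters with any BN1-only region at the 5′ end. Of the 506 without a shared region there, 51.2% (46.7 to 55.6) reached it, against 81.7% (80.8 to 82.6) of 6738 shared, 58.3% (55.2 to 61.4) of 1010 control-only and 22.9% of 9238 promoters with no region. Over all 17492 promoters 48.4% reached it, a share inside the interval of the 506. Among the lineage lists it was reached by 1 of 12 neutrophil, 2 of 10 B lymphoid and 1 of 11 erythroid promoters. These were Gfi1, then Ebf1 and the B cell identity factor Pax5, and Sptb, which encodes red cell spectrin. Region width differed little with CpG content, at a median of 498 bp for regions at promoters with a ratio of at least 0.6 and 593 bp at those below it.

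**Figure D5:**
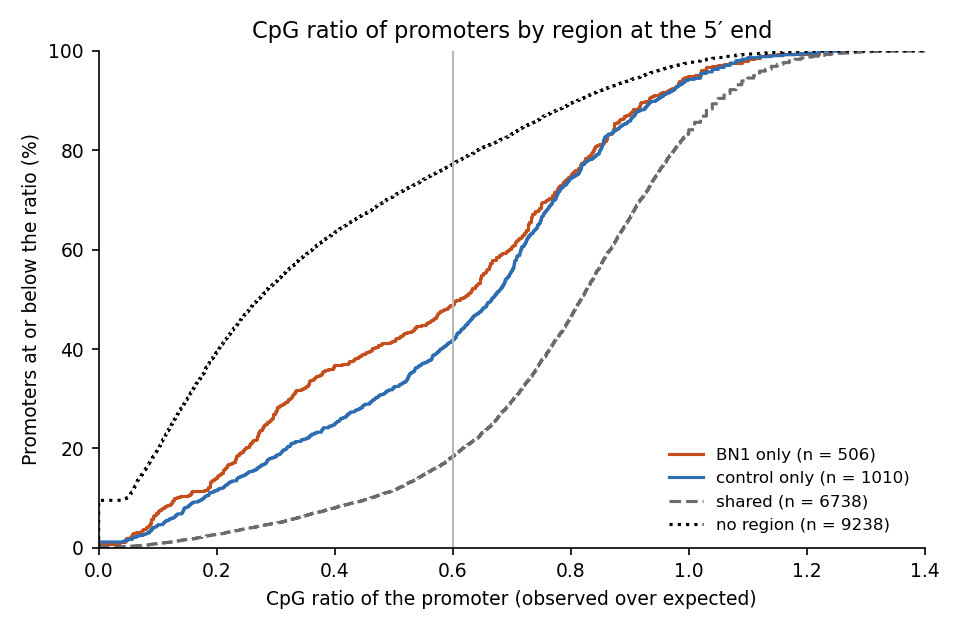
Cumulative share of promoters (y axis, percent) by CpG ratio (x axis, observed over expected in 300 bases) for genes with a BN1-only, control-only, shared or no region at the 5′ end, with a grey line at 0.6. The BN1-only curve lies between those of shared promoters and of promoters with no region, with a median of 0.612 against 0.817 for shared promoters.

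Of the other letters searched on both strands, CCGGAAGT, bound by many ETS factors, stood in 2.57% (1.37 to 4.35) of the 506 BN1-only promoters and 11.1% of shared ones. GAGGAAGT, bound by the myeloid and B cell factor PU.1, stood in 5.73% (3.87 to 8.13) and 3.32%, and in 9.72% of BN1-only promoters with a CpG ratio below 0.6 against 3.96% of all such promoters. TGTGGT, bound by RUNX factors, stood in 19.0% and 11.7%, and CCAAT, bound by NFY, in 38.7% and 40.1%. GGGCGG, bound by SP and KLF factors, stood in 50.4% and 68.6%. TCCCNNGGG (EBF factors) stood in 9.88% and 7.06% and in 0 of the 10 B lymphoid promoters, CAGCTG (E proteins) in 17.0% and 13.1%, GGAANNGAA (ETS with IRF factors) in 8.50% and 7.08% and TGANTCA (AP-1) in 5.73% and 3.84%. Over all 17492 promoters the shares were 5.28% (ETS), 3.14% (PU.1), 15.1% (RUNX), 39.2% (NFY) and 46.3% (SP and KLF). They were 7.03% (EBF), 15.1% (E proteins), 7.77% (ETS with IRF) and 7.03% (AP-1) for the rest. The RUNX letters stood in 17.7% of promoters with no region. Against all promoters with a CpG ratio below 0.6, the BN1-only ones below it held the ETS letters in 2.43% against 1.72%, the SP and KLF letters in 27.5% against 20.2%, the RUNX letters in 22.3% against 20.3% and the EBF letters in 10.1% against 5.73%. The AP-1 letters stood in 8.50% against 10.4%. For ETS, for SP and KLF and for AP-1 this is the opposite direction to that against shared promoters. The intervals for ETS (6 of 247 promoters, 0.897 to 5.21), RUNX (17.2 to 28) and AP-1 (5.34 to 12.7) hold the share they are set against. So do those of the E protein letters (21.1%, 16.1 to 26.7, against 17%) and the ETS with IRF letters (12.1%, 8.35 to 16.9, against 9.31%). The ETS, PU.1 and ETS with IRF letters can overlap each other, and all shares move with base composition.

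Regions on both sides of the 1000 bp distance are given by their distance and fold. Just inside it lay regions of Znhit1 (999 bp, fold 13.0; among the 10 longest), Hes1 (996 bp, 5.87) and Hacd4 (994 bp, 5.24). Just outside lay regions of Kcnip2 (1003 bp, 4.31), G0s2 (1004 bp, 5.25) and Pnpla1 (1004 bp, 7.48). G0s2 and Pnpla1 each had another BN1-only region within the distance at the 5′ end, and so are among the genes counted. The shared regions with the least control peak length among the bases of both lists were at Selplg, Sh2b2 and Apobec3, where it made up 6.73%, 7.55% and 8.25%, and these were not counted as BN1-only.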

How the data were processed

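The deposited files are headerless narrowPeak lists, 1 per ChIP library. The submitters' processing notes list MACS3 3.0.1, a peak caller, beside Bowtie2 2.5.4, deepTools 3.5.1 and Picard 3.2.0, and name mm10 (GRCm38) as the build, without saying what each was used for. Input use, pooling and the peak threshold are not stated, and the 2 input libraries were not analysed here. For every peak the authors deposited a fold enrichment (a linear ratio), −log10 of p and q, a summit offset and a score of 10 times the −log10 q. These are values within a list and were used only to describe or rank its peaks.

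Peaks on chromosomes 1 to 19, X and Y were merged with bedtools 2.31.1 (distance 0), and 8 BN1 and 28 control peaks on other scaffolds were left out. Gene ends came from the RefSeq table of GRCm38.p6, the assembly of mm10. Strand, annotated starts and promoters came from the RefSeq promoter table, which matched 17492 of 21887 genes. Acetylated length is the bp of peak within 10 kb of a gene, so a peak near several genes counts for each of them. Intervals are exact Clopper-Pearson. Of 13 gene lists, Znf532 was not found. Members, lists and the naming rule (10 longest and 10 strongest regions, 5 genes with several regions, up to 8 per list, 3 regions at each edge, no predicted genes) were chosen with earlier results of these data known; further listed genes were named after their values were seen. For 1 gene that the rule names, values are not reported here. Classification was checked on simulated peaks. Python 3.11.15, numpy 2.4.6, pandas 2.3.3, scipy 1.17.1 and matplotlib 3.10.9 were used.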

Additional observations from a re-analysis of the deposited data

How the results depend on the processing

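Over 10 measures and 11 alternatives, 78 values stayed within 1.5 times the count or within the 95% interval of the reported median or share, and 32 moved. Of the 78, 10 came from leaving out chromosome Y. They could not move, because 0 of the regions lay there. No paired analysis was possible because each group had 1 library and no test was run.

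Asking for a −log10 q of at least 5 in both lists gave a median width of 752 bp, a median fold of 6.29, 82.6% at the 5′ end and 59.8% of promoters with a CpG ratio of at least 0.6. At 10 these were 975 bp, 8.13, 89.0% and 68.5%, with 9 neutrophil members. With the minimum in the list labelled BN1 alone, 5 gave 790 bp and a fold of 6.28. There, 10 gave 427 regions, 448 genes, 350 of them with no control peak at an end, 1113 bp, a fold of 8.08, 8 neutrophil and 10 erythroid members. Lists of equal length gave 1041 genes with no control peak at an end, a fold of 5.29, 82.4% at the 5′ end and 61.8% of promoters with a CpG ratio of at least 0.6. Merging within 500 bp gave 759 bp and a fold of 5.61, and within 2000 bp 926 bp and 6.02. A gene end window of 500 bp gave 612 bp, a fold of 5.41 and 82.6% at the 5′ end, and one of 2500 bp gave 1595 regions, 466 bp and 4.84. Counting regions with up to 20% control bases, or leaving out chromosome Y, moved none of the 10 measures past these limits. The B lymphoid count stayed within 1.5 times under every alternative run. The depth of both libraries is unknown, and its effect on weak regions was not tested.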

Other observations

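Among the 1037 regions, 31 lay on chromosome X (2.99%, 2.04 to 4.22), against 194 of 7430 shared gene-end regions (2.61%), and 0 lay on chromosome Y. Hairpins of 2 microRNAs fell inside them, Mir6538 in the region of 901 bp at Rnf144a (fold 12) and Mir6973a in the region of 2162 bp at Ltb, the lymphotoxin beta gene (fold 5.91). Genes with 3 or more BN1-only end regions numbered 8, with Rapgef3, which encodes a cAMP-activated exchange factor, at 4 regions over 1943 bp. Plac8 had 3 over 2592 bp and Pdcd4, a translation inhibitor, had 3 over 2991 bp.

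Promoters of 13 neutrophil list genes had no BN1-only region, or a shared one, at the 5′ end. GAGGAAGT stood in 6 of these (46.2%, 19.2 to 74.9), among them Mpo, Elane and Prtn3, and in 1 of the 12 with a BN1-only region, Mmp8. TTGCNNAA stood in 2 of the 13, Ly6g and Ms4a3, and in 7 of the 12. These counts were noticed in the data and not tested.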
